A study of Homo sapiens with 3 samples.

Results

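The regions described here are the stretches of the genome of HCT116 cells in which mapped replication origins lay most closely together. HCT116 is an established human colorectal cancer cell line, grown here without treatment, and the 3 replicates of short nascent strand sequencing (SNS-seq) formed 1 group with no other condition. For every replicate there were EPIC2 calls of broad regions and MACS2 calls of 1-base summits, in hg19 coordinates. A common region was an EPIC2 region that held at least 1 MACS2 summit of its own replicate, and a consensus origin was a set of overlapping common regions from at least 2 replicates. Chromosomes 1 to 22 were divided into windows of 1 Mb from the first base, and windows with 40 or more consensus origin starts were called origin-dense. This gave 314 origin-dense windows of the 2725 windows that held a call in any replicate, which is 11.5% of them. They held 16240 of 41995 consensus origins, or 38.7%, and 51.0% of the bases that consensus origins covered.

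DNA replication in human cells starts at many origins, which are licensed in G1 by the origin recognition complex and the MCM helicase and of which only some fire in a given S phase. Origins in human cells share no simple sequence, tend to lie in clusters that fire at a similar time, and are known to be more frequent in gene-rich chromatin that replicates early. SNS-seq enriches short nascent strands that start with an RNA primer, because the primer protects them from lambda exonuclease, so a peak marks a place used as an origin in some cells of the population and not the number of origins fired in any 1 cell.

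The windows were chosen on the number of origin starts in all 3 replicates, so their counts, covered share and spacing describe the choice, and no test was made of them. The same holds for the meeting of callers and for the agreement of replicates, since a common region needs both callers and a consensus origin needs overlap between replicates. The depth of each library is unknown, since only calls were given, and nothing in the labels says whether the replicates came from separate cultures. With 3 replicates the smallest 2-sided p an exact sign test can give is 0.25, so no p-value is given and spread is the SD over the 3 replicates. The replicates did not weigh equally in the choice. Common regions of replicate 1 were part of 98.7% of the consensus origins in origin-dense windows, those of replicate 3 of 83.3% and those of replicate 2 of 44.5%. With the same threshold of 40 starts, no window remained without replicate 1, where the highest number was 38, while 193 windows were found without replicate 2 and 23 without replicate 3.

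Origin-dense windows held between 40 and 76 consensus origin starts, with a median of 51 and quartiles of 45 and 57. The other 2411 windows had a median of 7 starts and at most 39. There were 132 origin-dense windows with 40 to 49 starts, 130 with 50 to 59 and 52 with 60 or more. The 182 windows with 50 or more made 6.68% of all windows. The threshold fell on a slope and not in a gap. The 17 windows with 40 starts and 15 with 41 were covered by consensus origins over 16.9% to 81.1% of their bases, with a median of 21.6%, and their median numbers of common regions were 80.5, 19 and 52 in replicates 1, 2 and 3. The 26 windows with 38 starts and 14 with 39 were covered over 12.1% to 66.4%, with a median of 19.2%, and their medians were 82, 19 and 50 common regions. Windows just inside and just outside the threshold therefore had nearly the same numbers of common regions in each replicate.

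Origin-dense windows were spread over the chromosomes unevenly. Chromosome 17 held 41 of them, which was 51.2% of its windows, and chromosome 19 held 34, or 58.6% of its windows. On these chromosomes 72.7% and 81.7% of consensus origins lay in origin-dense windows. Chromosomes 1, 8 and 10 followed with 31, 28 and 24 windows, which made 13.5%, 19.4% and 17.9% of the windows of each. These 5 chromosomes held 158 origin-dense windows, or 50.3%, against 23.7% of all windows with a call. Chromosome 22 had 13 origin-dense windows, but they made 36.1% of its windows. Chromosomes 16 and 12 had 17 each, 11 had 15, 7 and 9 had 13 each, 2 had 12 and 20 had 11. Chromosomes 3 and 14 had 9 each, 6 had 7, 5 and 15 had 6 each, and 4 and 21 had 3 each. Chromosomes 13 and 18 had 1 each. As background, chromosomes 17, 19 and 22 are rich in genes for their length and chromosomes 4, 13 and 18 are poor in them. Gene content and copy number were not measured here, and their part in these counts was not tested.

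**Figure D1:**
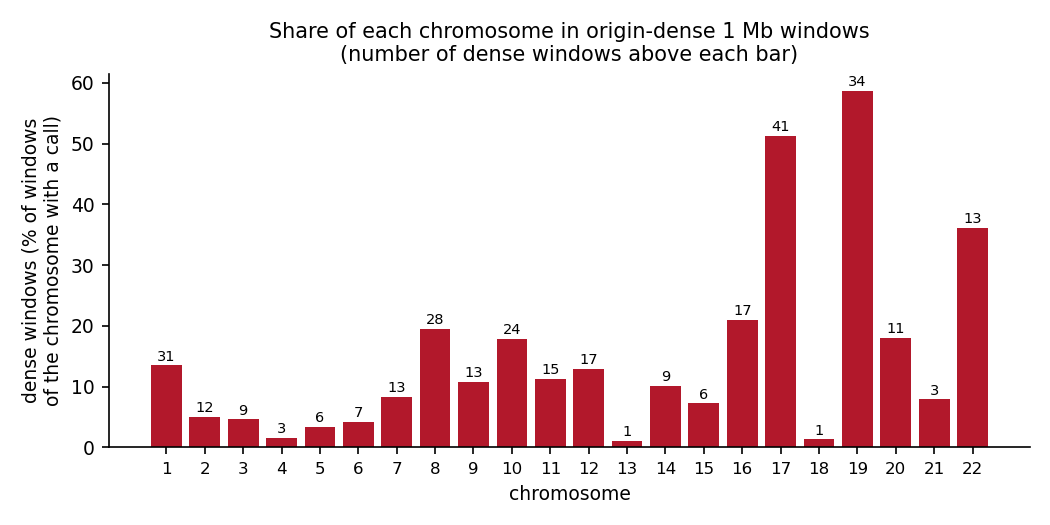
Origin-dense windows by chromosome, as their number and as a percent of the chromosome's windows with a call. The 41 windows of chromosome 17 and 34 of chromosome 19 exceeded those of every other chromosome, and chromosomes 13 and 18 had 1 each.

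Windows near either end of the calls of a chromosome were more often origin-dense. Of the 314 windows, 92 (29.3%) were among the 10 windows nearest to either end of the calls of their chromosome, compared with 14.3% of the other windows. Read from the other side, 21.1% of windows near an end were origin-dense and 9.70% of windows farther in. The number of windows near an end does not grow with the length of a chromosome. Chromosomes 19 and 22, with 58 and 36 windows with a call, therefore gave a larger part of theirs than chromosome 1 with 230. The comparison was not made within chromosomes, and the part of this in the difference was not tested. The last window with a call was origin-dense on 1 chromosome only. Windows were cut from the first base, so the end of a chromosome can cut the last one short. On chromosome 1, for example, the calls ended at base 249216371. The count therefore does not describe the last full 1 Mb of a chromosome. No origin-dense window lay directly beside a window that held no call.

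Most origin-dense windows lay next to each other. They formed 154 runs of neighbouring windows, of which 86 were windows standing alone and 31 were pairs. A further 37 runs held 3 or more windows and together 166 of the 314 windows (52.9%). An origin-dense neighbour was present for 228 windows (72.6%). Over all windows with a call 11.5% were origin-dense. On chromosomes 17 and 19 it was 51.2% and 58.6%, so neighbours there are frequent by number alone. The part of this in the 72.6% was not tested. The edges of runs differed in how far the number of starts fell. The 304 windows beside a run, counted once per side, had a median of 26 starts, and 120 of them (39.5%) had 30 to 39 while 48 (15.8%) had fewer than 10. In 41 places a single window separated a pair of runs, with 1 to 38 starts and a median of 31.

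The longest run was chr17:55000001-67000000, with 12 windows and 788 consensus origins. Its windows held 52 to 76 starts and a mean of 65.7, and consensus origins covered 52.8% of it. It held 1315 common regions of replicate 1, 376 of replicate 2 and 1060 of replicate 3. The windows on either side had 35 and 33 starts, against 76 and 67 in the first and last windows of the run. The run included both windows with the highest number of starts when all 3 replicates were used. In chr17:55000001-56000000 there were 76 starts and 51.8% of bases were covered, with 114, 31 and 86 common regions in replicates 1, 2 and 3. In chr17:57000001-58000000 there were also 76 starts but 67.4% of bases were covered, with 129, 30 and 102 common regions. Equal numbers of starts thus came with different covered shares inside 1 run. These numbers and their order depended on the replicates. The 76 starts of each became 19 and 24 without replicate 1, 67 and 73 without replicate 2 and 29 and 26 without replicate 3, where chr17:78000001-79000000 had 44 and stood above both. With equal numbers of regions per replicate they had 49 and 58 starts, below the 59 of chr10:104000001-105000000. With a reciprocal overlap of 50% they had 51 and 44.

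Chromosome 19 carried 3 of the next longest runs. The run chr19:1-9000000 began with the first window of the chromosome and had 9 windows, 493 consensus origins and a covered share of 57.6%. Replicate 2 gave 450 common regions in it against 953 in replicate 1 and 569 in replicate 3. Its highest window was chr19:3000001-4000000 with 62 starts. The window after it had 38 starts, and the next window was origin-dense again with 57. The runs chr19:13000001-20000000 and chr19:45000001-52000000 had 7 windows each, with 382 and 389 consensus origins and covered shares of 47.0% and 52.4%. They peaked at chr19:13000001-14000000 with 62 starts and at chr19:49000001-50000000 with 66. The first of these ended abruptly, since the window after it had 5 starts.

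A run of 7 windows lay at chr8:98000001-105000000, with 371 consensus origins, a covered share of 30.9% and its highest window at chr8:103000001-104000000 with 73 starts. Replicate 3 had 506 common regions in it and replicate 1 had 590. The run chr9:130000001-137000000 also had 7 windows, with 359 consensus origins and up to 65 starts in chr9:132000001-133000000. Replicate 3 had 412 common regions there and replicate 1 had 701, so 2 runs of equal length and similar numbers of origins differed in how much replicate 3 gave.

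Runs of 6 windows were found at chr1:23000001-29000000, chr11:63000001-69000000 and chr20:30000001-36000000, with 329, 326 and 292 consensus origins. Their highest windows were chr1:28000001-29000000 with 68 starts, chr11:64000001-65000000 with 64 and chr20:30000001-31000000 with 56. The run on chromosome 20 had its highest window at its edge, beside a window with 2 starts. Runs of 5 windows were found at chr10:101000001-106000000, chr10:123000001-128000000 and chr17:74000001-79000000. The first had 326 consensus origins and a covered share of 64.4%, and its highest window was chr10:104000001-105000000 with 72 starts. The run chr10:123000001-128000000 had 270 consensus origins and its highest window, chr10:123000001-124000000, had 67 starts. The run chr17:74000001-79000000 had only 250 consensus origins, with a peak of 67 starts in chr17:78000001-79000000, but its covered share of 77.3% was above that of every other run of 5 or more windows.

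**Figure D2:**
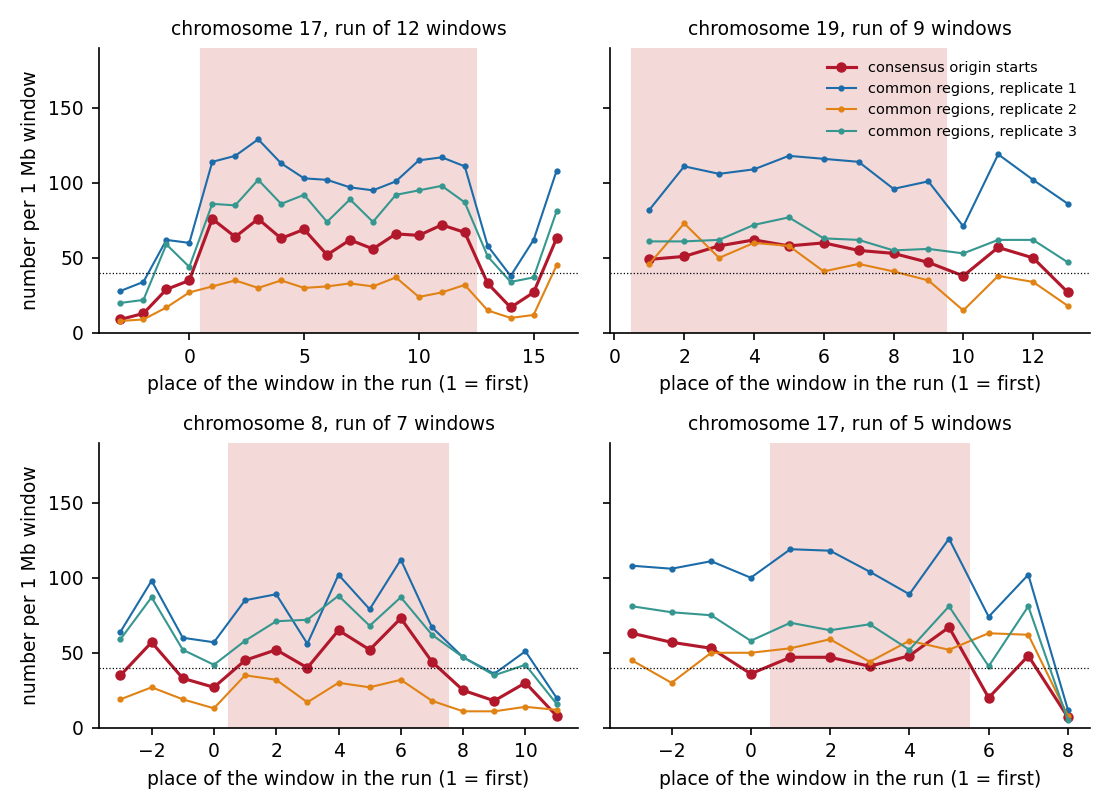
Numbers per 1 Mb window across 4 of the runs (shaded) and the windows around them, as consensus origin starts and as common regions of each replicate, with the threshold of 40 starts as a dotted line. In the 12 windows on chromosome 17 replicates 1 and 3 both lay above the windows directly on either side. The last window drawn there, origin-dense itself, rose again to 108 and 81 common regions of these replicates. In the 9 windows on chromosome 19 replicate 2 came near replicate 3 and exceeded it in 1 window.

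The runs of 4 windows were chr1:8000001-12000000, chr3:47000001-51000000, chr6:33000001-37000000, chr8:141000001-145000000, chr12:120000001-124000000, chr16:1000001-5000000, chr16:84000001-88000000, chr17:40000001-44000000 and chr17:45000001-49000000. They held 190 to 237 consensus origins, and the covered share ranged from 25.1% at chr6:33000001-37000000 to 67.2% at chr17:45000001-49000000. Of the 16 runs of 3 windows, 3 lay on chromosome 22, at chr22:29000001-32000000, chr22:37000001-40000000 and chr22:44000001-47000000. Chromosomes 1 and 17 had 2 each, at chr1:31000001-34000000, chr1:44000001-47000000, chr17:36000001-39000000 and chr17:70000001-73000000. The others were chr2:25000001-28000000, chr6:41000001-44000000, chr7:1-3000000, chr8:124000001-127000000, chr9:138000001-141000000, chr10:114000001-117000000, chr12:49000001-52000000, chr16:67000001-70000000 and chr21:44000001-47000000. Runs of 3 windows held 134 to 173 consensus origins, the fewest at chr22:29000001-32000000 and the most at chr17:70000001-73000000.

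High numbers of starts were not restricted to long runs. The window chr16:81000001-82000000 had 74 starts, the highest number after the 76 of chromosome 17, and stood alone. It was covered over 60.4%, with 119, 43 and 93 common regions in replicates 1, 2 and 3. The window chr1:155000001-156000000, in a pair, had 67 starts and was covered over 43.2%. Among the windows with 67 or more starts, 14 in all, the others not yet named were chr17:65000001-66000000 with 72, chr10:101000001-102000000 with 70, chr17:59000001-60000000 with 69, and chr1:27000001-28000000 and chr17:66000001-67000000 with 67 each. The lowest numbers of common regions among these 14 were 103 for replicate 1, 16 for replicate 2 and 81 for replicate 3. Their 67 to 76 starts became 11 to 29 without replicate 1, 57 to 73 without replicate 2 and 15 to 44 without replicate 3.

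Inside the 3 windows with the most starts, single origins differed in width and in the rank of their summits. The widest origin of the first window, chr17:55937001-55966400, spanned 29400 bases and joined 3, 2 and 3 common regions of replicates 1, 2 and 3. Its highest summit, ranked by score within a replicate, was at percentiles 99.7, 81.5 and 65.9 in that order. The origin chr17:55454201-55460800, of 6600 bases, had the highest mean percentile over the replicates among the origins of that window found in all 3, with 95.4, 97.3 and 90.9. In the second window the widest origin was chr17:57517601-57546800, of 29200 bases, with percentiles of 99.5, 52.8 and 87.5, and the one with the highest mean by the same rule was chr17:57174601-57188800 with 98.4, 59.5 and 98.2. On chromosome 16 the widest origin was chr16:81787401-81816600, also of 29200 bases, with 98.2, 61.4 and 89.99, and chr16:81904801-81916600 had the highest mean with 98.2, 94.3 and 97.6. Summits of replicate 2 ranked below those of replicate 1 in 5 of these 6 origins.

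Consensus origins covered 16.5% to 86.7% of the bases of an origin-dense window, with a median of 32.1% and quartiles of 25.3% and 44.9%. In the other windows the median was 2.20%. The mean over origin-dense windows was 36.8%, and in windows taken by rank it was 14.3% without replicate 1, 31.9% without replicate 2 and 14.2% without replicate 3. Common regions of replicate 1 covered a mean of 29.5% of an origin-dense window, those of replicate 2 covered 9.46% and those of replicate 3 covered 32.8%, a mean of 23.9% ± 12.6 (SD, n = 3). The same means in the other windows were 5.07%, 1.61% and 5.29%. Replicate 3 thus covered slightly more of these windows than replicate 1 although it had fewer regions in them.

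The number of starts and the covered share gave different orders at the top. Of the origin-dense windows 54 were covered over at least 50% and 73 over less than 25%. The window with the highest covered share among origin-dense windows was chr17:74000001-75000000, with 86.7% and only 47 starts, and the lowest was chr12:117000001-118000000, with 16.5% and 44 starts. Spearman's rho between starts and covered share was 0.76 over the 314 windows and 0.99 over all 2725, given as a description since both come from the same origins. Windows covered over less than 25% had a median of 43 starts and at most 54. The 38 origin-dense windows covered over 50% to 70% had a median of 59. The 18 windows covered over 70% or more, origin-dense or not, had a median of 53.5 starts, and 10 of them lay on chromosome 17.

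A rule on starts left out windows that were almost fully covered. Above the median covered share of origin-dense windows lay 6 windows with fewer than 40 starts, 4 of which were covered over at least 50%. The window chr17:79000001-80000000 was covered over 91.6%, more than any origin-dense window, with 20 starts and 74, 63 and 41 common regions in replicates 1, 2 and 3. The window chr17:73000001-74000000 was covered over 90.7% with 36 starts and 100, 50 and 58 common regions. The others were chr8:145000001-146000000 with 66.4% and 39 starts, chr16:88000001-89000000 with 59.04% and 36, chr17:49000001-50000000 with 36.9% and 38, and chr17:44000001-45000000 with 34.8% and 38. Those on chromosome 17, other than chr17:49000001-50000000, each lay between a pair of origin-dense windows.

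**Figure D3:**
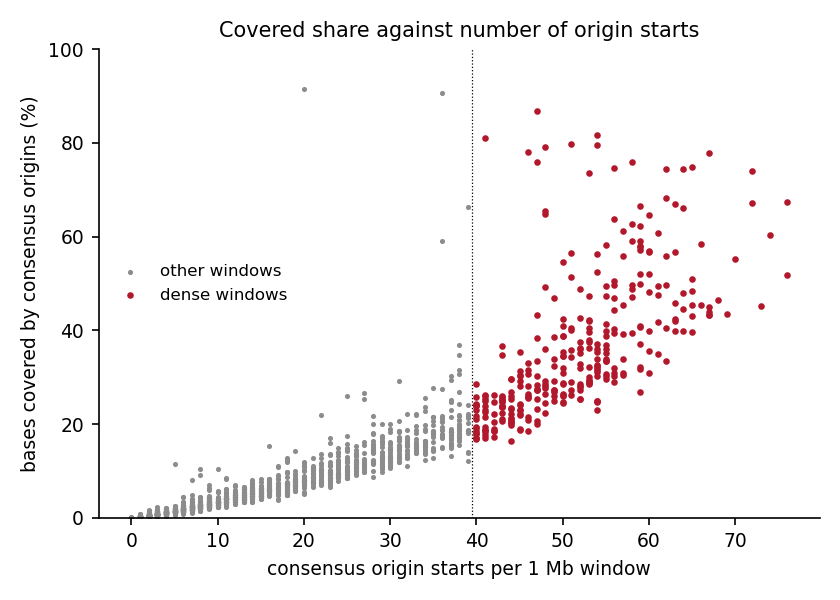
Consensus origin starts of every 1 Mb window (x axis) against the percent of its bases covered by consensus origins (y axis), with origin-dense windows in colour. Origin-dense windows ranged from 16.5% to 86.7%, and the 2 windows with the highest covered share had fewer than 40 starts.

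Origins in these windows were wider than elsewhere. Their median width was 5400 bases, compared with 3600 bases in the other windows, and the means were 7125 and 4322 bases. At least 10000 bases were spanned by 3091 origins (19.03%) in origin-dense windows and by 1171 (4.55%) in the others. The widest origin in an origin-dense window had 113200 bases and the widest elsewhere 161000. Common regions of single replicates showed the same order. Their median widths in replicates 1, 2 and 3 were 2200, 2800 and 4000 bases in origin-dense windows and 1400, 2200 and 3000 bases elsewhere, a ratio of 1.39 ± 0.158 (SD, n = 3). The windows were chosen from these same regions, and a wide region overlaps those of other replicates more easily. The widths are therefore given as a description.

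The median gap from the end of a consensus origin to the start of the next was 6400 bases within runs of origin-dense windows, over 16086 gaps, with quartiles of 2200 and 14800 bases. In the other windows it was 23800 bases over 25563 gaps, with quartiles of 8400 and 66000 bases. In windows taken by rank the median gap was 25400 bases without replicate 1, 8200 without replicate 2 and 17200 without replicate 3. Gaps were under 5000 bases in 42.4% of cases in origin-dense windows and 16.1% elsewhere. Gaps over 100000 bases made 0.516% of those in origin-dense windows, 83 in number, and 17.4% of those elsewhere. Between common regions of single replicates the median gaps in origin-dense windows were 4600, 16200 and 6000 bases, against 12000, 60600 and 16800 bases in the other windows. Closer spacing was therefore seen in each replicate, though the value itself followed the number of regions a replicate had.

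Origins were distributed along most of the length of each window. When every window was cut into 10 bins of 100 kb, all bins held a start in 264 windows (84.1%), 9 bins did in 39 windows and 8 bins in 11 windows. The fullest bin held a median of 8 starts and at most 12. The rule asked for 40 or more starts per window, which by itself makes most of the 10 bins likely to hold one. The bins are therefore given as a description, and evenness of placement within a window was not tested. The median gap within a window ranged from 1200 to 16200 bases, with a median over windows of 7400. The largest gap within a window ranged from 16400 to 300200 bases, with a median of 67100. A gap over 100000 bases was present in 72 windows (22.9%) and a gap over 200000 bases in 8, so a minority of origin-dense windows included a stretch of that length without any consensus origin.

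**Figure D4:**
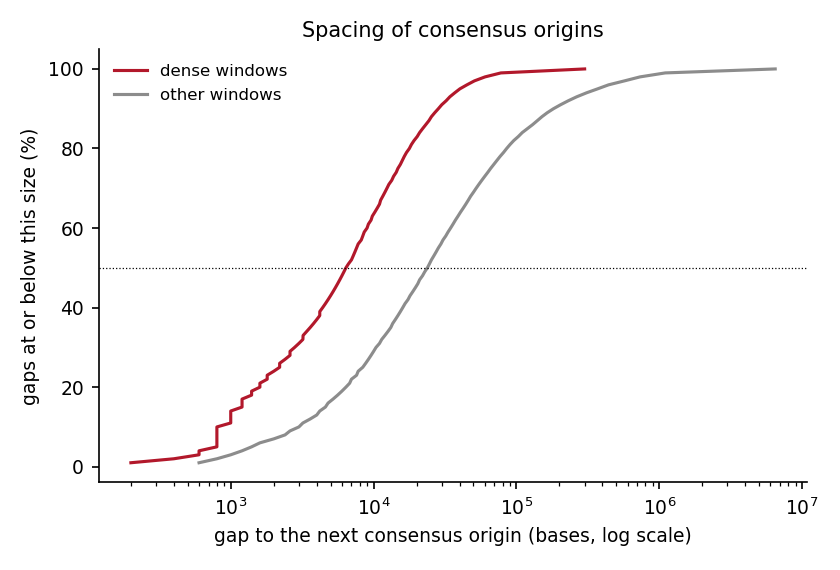
Cumulative percent of gaps between neighbouring consensus origins (y axis) by gap length in bases (x axis, log scale), within runs of origin-dense windows and in the other windows. The curve of origin-dense windows crosses 50% at 6400 bases and that of the other windows at 23800 bases.

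Each replicate had more calls of both callers in origin-dense windows, but by different factors. An origin-dense window held a mean of 98.5 common regions of replicate 1, from 56 to 130, against 29.1 in other windows. For replicate 2 the mean was 28.99, from 7 to 73, against 6.64, and for replicate 3 it was 62.8, from 30 to 102, against 15.3. The ratio was 3.38, 4.37 and 4.12, a mean of 3.96 ± 0.512 (SD, n = 3). For all EPIC2 regions, with or without a summit, it was 4.29 ± 0.468 (SD, n = 3). For MACS2 summits it was smaller, 2.25 ± 0.234 (SD, n = 3), with means of 154, 48.5 and 107 summits in origin-dense windows and 69.3, 19.4 and 52.9 elsewhere. The factor was lower for summits than for EPIC2 regions in each replicate.

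The meeting of the 2 callers entered the choice of windows, and its shares are given as a description. Summits lay in an EPIC2 region of their own replicate in 85.4%, 67.7% and 77.4% of cases in replicates 1, 2 and 3, a mean of 76.8% ± 8.89 (SD, n = 3). Elsewhere they did so in 49.9%, 36.9% and 35.0%. The difference was 36.2 ± 5.86 percentage points (SD, n = 3), and the common regions also covered more of these windows in each replicate. In the other direction EPIC2 regions held a summit slightly less often in origin-dense windows, in 75.8%, 54.3% and 68.4% of cases against 84.5%, 58.1% and 73.6%, a difference of -5.90 ± 2.50 percentage points (SD, n = 3). The scores moved apart as well. The median percentile of EPIC2 score among common regions was 73.3, 72.2 and 73.0 in origin-dense windows and 47.4, 55.9 and 45.0 elsewhere, 23.4 ± 6.25 points higher (SD, n = 3). That of the top summit score was 68.4, 74.6 and 61.5 against 75.4, 75.7 and 68.8. In all 3 replicates the regions of origin-dense windows thus ranked higher by EPIC2 and lower by MACS2, though the second difference was only -1.10 points in replicate 2.

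Agreement of the replicates, which the choice also used, was described at the level of single origins. All 3 replicates had a common region in 4307 of the 16240 consensus origins of origin-dense windows (26.5%), compared with 14.5% of those elsewhere. Replicates 1 and 3 alone made 55.5% in origin-dense windows and 56.5% elsewhere. Replicates 1 and 2 alone made 16.7% and 26.9%, and replicates 2 and 3 alone 1.29% and 2.15%. The share differed with the width of the origin, which itself grows where regions of more replicates are joined. For origins under 2000 bases the share in all 3 replicates was 2.62% in origin-dense windows and 2.53% elsewhere. For 2000 to 5000 bases it was 11.6% and 10.4%, for 5000 to 10000 bases 28.1% and 24.6%, and for 10000 bases or more 60.8% and 51.2%. Per origin-dense window the share ranged from 6.52% to 69.6%, with a median of 24.1%.

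Agreement differed along the runs. It was 52.8% in chr17:74000001-79000000, 46.2% in chr19:1-9000000 and 31.6% in the longest run, chr17:55000001-67000000. In chr20:30000001-36000000 it was 19.2%. In the 4 windows of chr8:141000001-145000000 it was 53.9%, and in the 3 of chr22:29000001-32000000 it was 14.9%. Covered share followed it in part, with 77.3%, 57.6% and 52.8% in the first 3 and 27.4% in the run on chromosome 20.

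Overlap between pairs of replicates is what a consensus origin counts, so a higher share in origin-dense windows follows from the choice. Regions of replicate 1 were met by a region of replicate 3 in 57.4% of cases in origin-dense windows and 29.5% elsewhere, and regions of replicate 2 by one of replicate 1 in 87.2% and 68.0%. Over the 6 directed comparisons the mean was 54.4% against 34.0%. Other replicates also covered more bases there. The share of regions met, divided by the percent of bases the other replicate covered, was 1.70 to 2.95 in origin-dense windows and 5.20 to 13.4 elsewhere. A share has an upper bound, so this quotient has a lower ceiling where the other replicate covered more bases. That it was lower in origin-dense windows in 6 of 6 comparisons is therefore no measure of agreement. Summits were not matched between replicates by the rule. For summits within 250 bases of a summit of another replicate the mean was 24.04% and 21.4%, higher in origin-dense windows in 4 of 6 comparisons. Origin-dense windows held 2.25 times as many summits per window, which by itself raises such matches. The shares were not adjusted for it, so they are no measure of better agreement. At the level of bases, 48.7% of origin-dense windows lay under a common region of at least 1 replicate, 19.6% under at least 2 and 3.40% under all 3.

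Over the 314 windows Spearman's rho between numbers of common regions was 0.40 for replicates 1 and 2, 0.52 for replicates 1 and 3 and 0.15 for replicates 2 and 3. Over all 2725 windows it was 0.88, 0.94 and 0.83. These are descriptions, since neighbouring windows share chromosomes and the choice narrowed the range of the counts, which by itself lowers rho. For summits it was 0.38, 0.33 and -0.19 over the 314 windows in the same order of pairs, and 0.89, 0.94 and 0.83 over all 2725.

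The balance between replicates moved with the chromosome. Replicate 3 had 0.637 common regions for each of replicate 1 in origin-dense windows and 0.524 elsewhere. Per window this ranged from 0.356 to 1.29. Among chromosomes with more than 1 origin-dense window it was highest on chromosomes 8 (0.772) and 10 (0.757) and lowest on 22 (0.552) and 6 (0.553). In the other windows of chromosomes 8, 10, 22 and 6 it was 0.713, 0.560, 0.491 and 0.528. Replicate 2 had 0.294 common regions for each of replicate 1 in origin-dense windows and 0.228 elsewhere. The value in origin-dense windows was highest on chromosome 19 (0.405). Among chromosomes with more than 1 such window it was lowest on 15 (0.192). In the other windows of chromosomes 19 and 15 it was 0.285 and 0.196. By run, the value of replicate 3 was 0.871 in chr10:114000001-117000000, 0.858 in chr8:98000001-105000000 and 0.806 in chr17:55000001-67000000, and 0.481 in chr22:44000001-47000000. In chr8:141000001-145000000 the value was 0.667 for replicate 3 and 0.564 for replicate 2.

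A measure that the choice of windows did not use is the number of common regions in a replicate that took no part in choosing. Windows were therefore ranked by the consensus origins of each pair of replicates, and as many as the origin-dense set were taken with ties kept. All 3 replicates had set that number. The replicate left out was then counted in the windows taken. With replicate 1 left out, 330 windows were taken, 252 of which were origin-dense, and they held a mean of 92.6 common regions of replicate 1 against 29.5 in the remaining windows. With replicate 2 left out, 328 windows were taken, 291 of them origin-dense, with 27.4 against 6.72 common regions of replicate 2. With replicate 3 left out, 332 windows were taken, 254 of them origin-dense, with 57.1 against 15.7 common regions of replicate 3. The ratios were 3.14, 4.08 and 3.65, a mean of 3.62 ± 0.468 (SD, n = 3), and the held-out replicate was denser in the chosen windows in 3 of 3 cases. The median of the remaining windows was 23, 5 and 10 common regions, and above it lay 330 of 330, 325 of 328 and 331 of 332 chosen windows. Above the 90th percentile of the remaining windows lay 87.6%, 84.8% and 83.7% of the chosen windows. The fewest consensus origin starts in a chosen window, from the pair that chose it, were 8, 31 and 16. When windows were ranked within each chromosome the mean ratio was 2.80 ± 0.247 (SD, n = 3). The number taken per chromosome was that of the origin-dense set, which all 3 replicates had chosen. The held-out replicate thus took part in these numbers, though not in the ranking within a chromosome. With the ranking over all chromosomes, and summits counted in place of common regions, the mean ratio was 2.13 ± 0.244 (SD, n = 3).

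**Figure D5:**
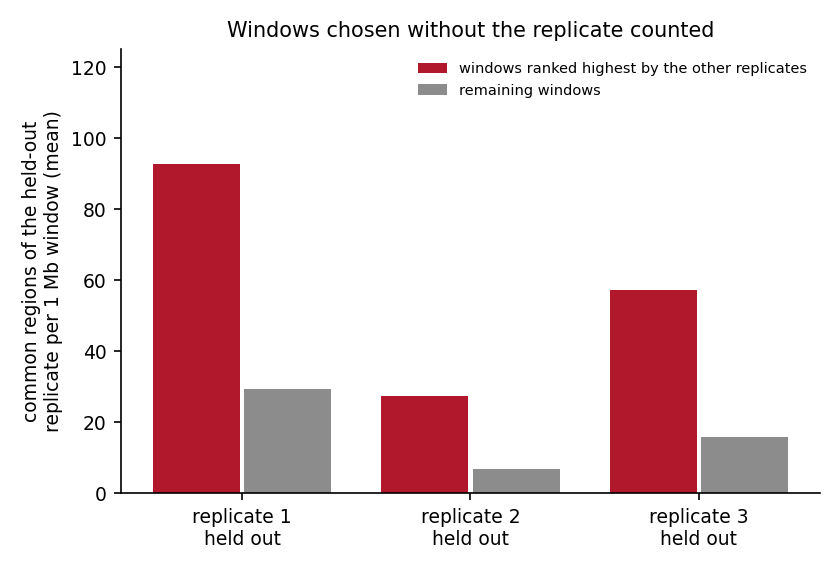
Mean number of common regions of a replicate per 1 Mb window, in windows chosen from the other 2 replicates and in the remaining windows. The bars are means over windows of 1 replicate each and carry no error bar, and the chosen windows were higher in all 3 replicates.

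The windows chosen in all 3 of these rankings numbered 218 of the 314 (69.4%). They included 157 of the 182 origin-dense windows with 50 or more starts (86.3%) and 61 of the 132 with 40 to 49. The rankings share their origins with the starts that set these classes, so the difference between the classes is a description.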

How the data were processed

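Per the methods of the study, the authors aligned SNS-seq reads to hg19 with Bowtie2 (2.3.4.2 in the submitters' processing notes), removed duplicates with Picard (2.18.17) and called each replicate separately with MACS2 (2.1.0.20151222, q = 0.1) and EPIC2 (FDR = 0.1). The sources name no control sample for the calls. In the deposited EPIC2 lists each region has a score of unstated kind, used only as a rank within a replicate. The deposited MACS2 score of a summit was taken to be −log10 of its q-value. EPIC2 regions lie on a grid of 200 bases.

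Overlap by 1 base or more joined the common regions of different replicates, and origins of 2 or more replicates were kept. An origin belongs to the window of its start. Coordinates are 1-based. Named regions were every run of 3 or more windows (with its highest window for runs of 5 or more), the 10 windows with the most starts with ties kept, and, in the first 3 windows, the widest origin and the origin found in all 3 replicates whose top summits had the highest mean percentile. The windows with high covered share and fewer than 40 starts, and the windows with the highest and lowest covered share, were named after their values were seen. Members and rules were chosen with earlier results of these data known. The human reference at hand is of another build (GRCh38), so gene names and sequences were not used here. Alternatives covered the threshold, a q-value of 0.01, the overlap, the unit, the grid, equal numbers per replicate and leaving out each replicate. Counting was tested on simulated data and returned the planted number of starts in 120 of 120 windows. The scripts ran under Python 3.11.15 with matplotlib 3.10.9, numpy 2.4.6 and scipy 1.17.1.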

Additional observations from a re-analysis of the deposited data

How the results depend on the processing

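The threshold set the number of windows directly, with 527 windows and 56.1% of consensus origins at 30 or more starts and 182 windows and 24.8% at 50 or more. A q-value of 0.01 left 274 windows, each of them in the set of 314, with 34.9% of origins. A reciprocal overlap of 50% left 35 windows with 6.57% of origins. Where a unit changed the counts, as many windows as before were taken by rank. Each share of origins is of those that its own setting gave. They numbered 8030 with all 3 replicates, 23199 with the reciprocal overlap, 83566 with widened summits and 31024 with close origins joined, against 41995. Requiring all 3 replicates gave 58.6% of origins, a covered share of 17.1% and a median gap of 24600 bases. Equal numbers of regions per replicate gave 57.4% of origins. Summits widened by 250 bases gave 27.2% of origins and a covered share of 4.38%. Joining origins closer than 5000 bases gave 33.9% of origins and a median gap of 14400 bases. Of the windows taken, 255 of 328, 277 of 332, 262 of 344 and 245 of 334 in that order were among the 314. A fall in covered share with all 3 replicates or with summits follows from fewer or narrower features. The cause of the other shifts was not tested.

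Leaving out 1 replicate at a time gave 0 to 193 windows, the lowest without replicate 1. Where a window reached 40 starts, the windows held 5.67% to 29.6% of the origins of that setting. By rank, 57.0%, 44.3% and 45.5% of the origins of each setting lay in the windows without replicates 1, 2 and 3. The covered share was 14.3%, 31.9% and 14.2%, and the median gap was 25400, 8200 and 17200 bases. The ratio for held-out regions became 2.13 with summits, 5.66 with covered bases and 2.80 within chromosomes. For the last, all 3 replicates had set the number of windows per chromosome. A grid shifted by 500 kb also gave 314 windows. The share of origins in all 3 replicates could not be computed where a replicate was left out or all 3 were required. No paired analysis was possible because there is 1 group. Depth is unknown, so a window with few calls cannot be told apart from a window that was poorly sampled.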
